A study of Mus musculus with 16 samples.

Results

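Clec4f, Tyrobp and C1qa are 3 genes known as transcripts of tissue macrophages, and their RNA was compared between kidney and liver of male C3HeB/FeJ mice, an inbred wildtype laboratory strain. The members were chosen by name: of 20419 probes on the array, which represent 9669 named genes, 3 probes carry exactly one of these symbols, 1 for each gene. The left kidney and the dorsal lobe of the liver came from mice aged 105 ± 5 days that were kept free of specified pathogens. Every array was a cDNA microarray read in both colours. On 7 arrays, called kidney arrays here, the kidney RNA of mouse 1, 2 or 3 was hybridised together with a pool of 5 livers, and on 9 liver arrays their liver RNA was hybridised with RNA pooled from 5 kidneys. There was no treatment and no altered genotype in any group. Whole pieces of organ were used, so fewer cells of a type and less RNA per cell cannot be told apart.

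Macrophages live in every organ and take up dying cells, microbes and proteins. Those of the liver, the Kupffer cells, line the sinusoids and are exposed to blood from the gut, while macrophages of the kidney lie between the tubules. Clec4f encodes a C-type lectin, a receptor that binds sugars, and in mice it is used as a marker of Kupffer cells. Tyrobp, also called DAP12, encodes an adaptor in the membrane of myeloid and natural killer cells that passes signals from receptors such as TREM2 to the kinase SYK. C1qa encodes the A chain of C1q, which starts the classical complement pathway and is made largely by macrophages.

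All values are log2 ratios of kidney over liver, so that a negative value means more RNA in liver. The labels do not say which channel was divided by which. The direction was set by textbook markers: the mean deposited value of albumin (Alb) was 8.44 on kidney arrays and -7.57 on liver arrays, while Kap, a transcript of proximal tubules, averaged -5.77 and 6.08. Values on kidney arrays were therefore turned, which opposes the order in which the titles name the samples. If the titles gave the true order, kidney and liver would have to be exchanged throughout, at the same sizes and tests. Albumin would then be higher in kidney, and Kap and the other proximal tubule genes tested higher in liver, the reverse of their use as markers. A ratio gives no level in either organ, and no gene's level is compared with another's.

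The arrays of mouse 2 stood apart. Over all probes they had medians from -1.49 to -1.19, and the 10 arrays of mice 1 and 3 had medians within 0.00267 of 0. The displacement went with signal. Signal was read from how often exactly the same ratio recurs on an array, as small whole-number intensities give few distinct ratios. Probes with at most 10% recurring values (bright) had medians between -0.15 and 0.09 on the arrays of mouse 2, whereas probes with over 50% (dim) had medians between -1.72 and -1.45. The members differed in this respect. No value of Clec4f recurred on any of its 16 arrays, and 1 of 16 values of Tyrobp did, so both probes were bright. Of the 15 values of C1qa, 8 recurred, 5 of them among its 6 values of mouse 2. Each result is therefore given as deposited and, where it matters, with the arrays centred on their medians or without mouse 2.

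Tyrobp showed the largest difference of the members. It was 7.59-fold higher in liver (95% interval 5.34 to 10.8), with a log2 ratio of -2.92 (SE 0.22, limma, Benjamini-Hochberg adjusted p = 6.17e-05 over all 18670 probes tested). Of all these probes, 12.6% passed at an adjusted p under 0.05, 5.18% with more RNA in kidney and 7.45% with more in liver. On kidney arrays the values of Tyrobp were -3.24, -2.14 and -2.70 in mouse 1, -2.89, -2.94 and -3.16 in mouse 2, and -2.99 on the single array of mouse 3. On liver arrays they were -2.48, -2.72 and -2.60 in mouse 1, -3.39, -3.93 and -3.16 in mouse 2, and -3.17, -2.77 and -2.36 in mouse 3. All 16 arrays lay on the liver side, and those of the 3 mice overlapped on kidney arrays. The means of mice were -2.90 ± 0.17 on kidney arrays and -2.95 ± 0.48 on liver arrays (SD, n = 3 each), beside an SD of 0.36 between repeated hybridisations.

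The position of Tyrobp within an array does not depend on an offset shared by all probes. The displacement of mouse 2 was not shared equally, as dim probes were lower than bright ones. Between 0.767% and 1.99% of the probes on an array had a lower ratio than Tyrobp, and the 6 arrays of mouse 2 (0.767% to 1.64%) did not stand apart from the other 10 (1.00% to 1.99%). After centring, the difference was -2.47 (adjusted p = 2.71e-05, limma), where 29.2% of all probes passed (17.8% higher in kidney, 11.3% higher in liver). Without mouse 2 it was -2.76 (adjusted p = 6.07e-06, limma), where 32.8% passed (18.5% and 14.3%).

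Clec4f was 3.77-fold higher in liver (95% interval 2.41 to 5.89), with a log2 ratio of -1.91 (SE 0.28, limma adjusted p = 0.00283). The values on kidney arrays were -1.71, -1.45 and -2.00 in mouse 1, -2.64, -2.78 and -2.78 in mouse 2, and -0.99 in mouse 3. On liver arrays they were -1.81, -2.32 and -1.72 in mouse 1, -2.34, -2.62 and -2.58 in mouse 2, and -1.52, -1.67 and -1.53 in mouse 3. Every array lay on the liver side, mouse 2 was lowest and mouse 3 highest in each kind of array, and the values of the 3 mice did not overlap on either kind. The SD between mice was 0.88 on kidney arrays and 0.47 on liver arrays (n = 3 each), larger than the SD of 0.21 between repeated hybridisations.

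This spread between mice changed with centring. After centring, the SD between mice of Clec4f was 0.37 on kidney arrays and 0.39 on liver arrays, and its difference was -1.46 (adjusted p = 1.95e-04, limma), or 2.75-fold. Mouse 2 was then highest on liver arrays (-1.18). Centring moved mouse 2 further than its bright probes, such as Clec4f, were shifted from the other mice (median shifts of -0.38 to -0.08). With mouse 2 aligned to the others by bright probes, Clec4f was at -1.82 (SE 0.23). Its share of probes with a lower ratio was 1.47% to 4.47% in mouse 2 and 1.50% to 7.46% in mice 1 and 3, with the single kidney array of mouse 3 highest. The call was lost without mouse 1 (-1.95, SE 0.43, adjusted p = 0.0704, limma) and on kidney arrays alone (-1.81, adjusted p = 0.0534, limma). It held without mouse 2 (-1.56, SE 0.16, adjusted p = 3.49e-04, limma) and without mouse 3 (-2.23, SE 0.41, adjusted p = 0.0164, limma).

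The bases before the annotated start of Clec4f are shown because this gene is the Kupffer cell marker of the set. The sequence is RefSeq's for GRCm38.p6 and covers chr6:83656117-83656366 on the minus strand, 5′ to 3′ toward the start. Macrophage genes are often bound by the ETS factor PU.1, whose core site contains GGAA. The motifs GAGGAA and GGAAGT, which overlap in the longer PU.1 site, were searched on both strands, and matches are in capitals.
Clec4f: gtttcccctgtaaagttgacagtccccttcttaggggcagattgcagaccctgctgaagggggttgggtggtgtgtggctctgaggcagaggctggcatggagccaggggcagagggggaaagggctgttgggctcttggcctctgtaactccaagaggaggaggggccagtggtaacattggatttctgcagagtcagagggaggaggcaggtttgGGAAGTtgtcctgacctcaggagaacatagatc
GGAAGT occurred once, beginning 33 bases before the start, and GAGGAA did not occur. Of 32851 mouse promoter windows of the same 250 bases, 19.7% held GGAAGT and 23.3% held GAGGAA. A match describes the letters and is not a bound site, and the arrays hold no measurement of binding.

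C1qa differed least. It was 2.18-fold higher in liver (95% interval 1.57 to 3.04), with a log2 ratio of -1.13 (SE 0.21, limma adjusted p = 0.00917). The values on kidney arrays were -0.43 and -0.77 in mouse 1, where another array had none, -1.21, -1.50 and -0.94 in mouse 2, and -0.96 in mouse 3. On liver arrays they were -1.78, -1.12 and -0.94 in mouse 1, -0.96, -1.32 and -1.44 in mouse 2, and -1.58, -1.47 and -1.32 in mouse 3. All 15 values were on the liver side as deposited, with means of mice of -0.93 ± 0.31 on kidney arrays and -1.32 ± 0.11 on liver arrays (SD, n = 3 each).

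In mouse 2, C1qa lay near the middle of the array. Between 45.2% and 64.8% of the probes had a lower ratio there, against 2.50% to 23.3% on the arrays of mice 1 and 3. After centring, mouse 2 had values from -0.09 to 0.36 and the others from -1.77 to -0.43. The centred difference was -0.67 (adjusted p = 0.0575, limma), while without mouse 2 it was -1.07 (adjusted p = 6.73e-04, limma). With the mouse as a replicate block the same difference of -1.13 had an adjusted p = 0.258 (limma). The call of C1qa also did not hold without mouse 1 (-1.22, adjusted p = 0.124, limma), without mouse 3 (-1.08, adjusted p = 0.165, limma) or on kidney arrays alone (-0.93, adjusted p = 0.411, limma).

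**Figure D1:**
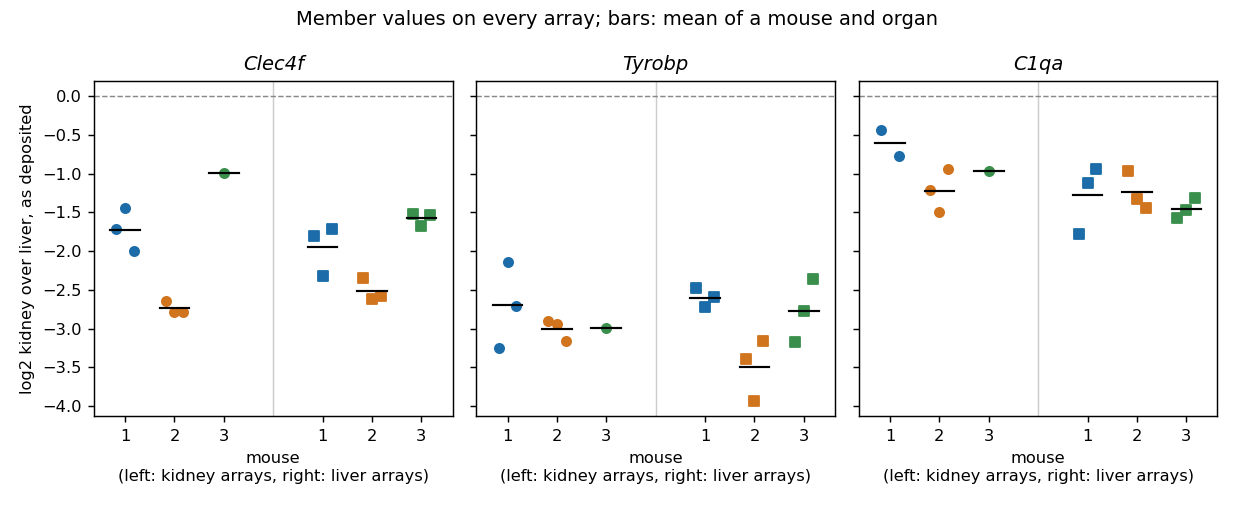
Log2 kidney over liver as deposited for each member on every array, by mouse, with kidney arrays as circles on the left and liver arrays as squares on the right of each panel, and bars for the mean of a mouse and organ. All points lie below 0, between -3.93 and -2.14 for Tyrobp, -2.78 and -0.99 for Clec4f, and -1.78 and -0.43 for C1qa.

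**Figure D2:**
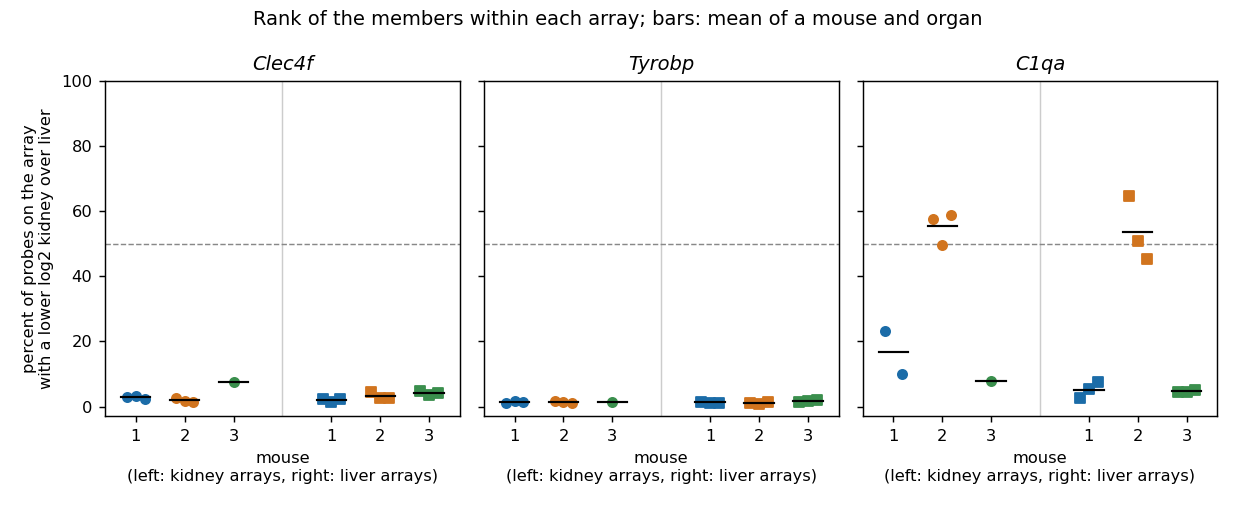
Percent of the probes on the same array with a lower log2 kidney over liver than the member, by mouse and array kind, with bars for the mean of a mouse and organ and a dashed line at the middle of the array. Tyrobp stays at or under 1.99% and Clec4f at or under 7.46%, while C1qa lies between 45.2% and 64.8% on the arrays of mouse 2.

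**Figure D3:**
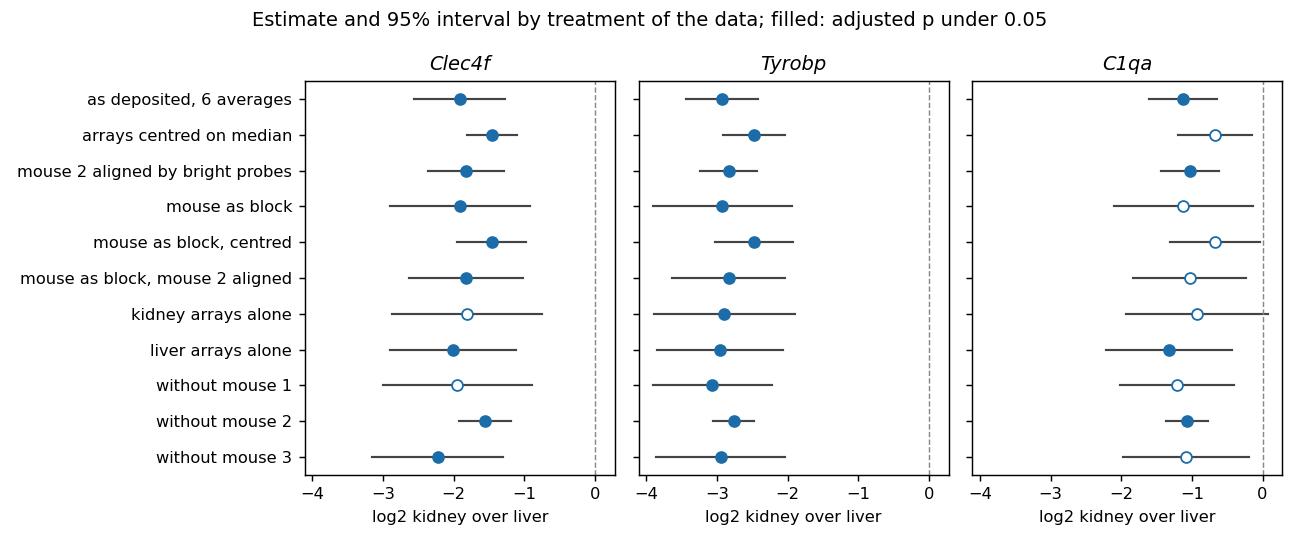
Estimated log2 kidney over liver with its 95% interval (limma) for each member under 11 treatments of the data, with filled points where the adjusted p is under 0.05. Tyrobp is filled throughout, Clec4f is open on kidney arrays alone and without mouse 1, and C1qa is open in 7 of the 11.

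With the mouse as a replicate block, Tyrobp (adjusted p = 1.37e-06, limma) and Clec4f (adjusted p = 0.00509, limma) passed. As kidney over liver, the 2 averages of a mouse deviated together over the probes (correlations of 0.591, 0.795 and 0.585 in mice 1 to 3), for a reason that was not tested. The fit over the 6 averages takes them as independent, so its SE tends to be too small. In the blocked fit the SE was 0.50 for each of the 3 members, and on liver arrays alone it was 0.46 for each. limma shares variance between probes, so such equal SEs reflect all probes more than the spread of a member. The adjusted p-values of the members in these fits, passed or lost, rest on that shared variance. In the blocked fit 5.23% of 18508 probes passed, 2.32% with more RNA in kidney and 2.91% with more in liver. With the arrays of mouse 2 aligned to the others by bright probes, all 3 members passed (limma), as did 18.5% of all probes (7.91% higher in kidney, 10.6% higher in liver). Tyrobp was then at -2.83, Clec4f at -1.82 and C1qa at -1.03.

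Kidney arrays and liver arrays measured the same contrast with the roles of single mouse and pool exchanged. Kidney arrays minus liver arrays was 0.06 for Tyrobp (95% interval -0.96 to 1.08), 0.20 for Clec4f (-1.09 to 1.49) and 0.40 for C1qa (-0.55 to 1.35), each with an adjusted p of 1 (limma). None of the 18670 probes passed this test, which is 0%, and 46 had an unadjusted p under 0.05. The fit takes the averages as independent, although the kidney and liver arrays of a mouse deviated together, so its intervals for this contrast tend to be too wide. Within mice, with the mouse as a replicate block on the kidney over liver scale, the SE was 0.19 to 0.20 and 12 of 18508 probes passed, which is 0.0648%. No member was among them (limma). C1qa was less negative on kidney arrays in each mouse, by 0.68, 0.02 and 0.49 in mice 1, 2 and 3 (95% interval of the mean -0.03 to 0.83, limma adjusted p = 0.620), while the differences of Tyrobp and Clec4f had both signs.

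An offset shared by all probes of an array cancels in the difference of 2 members on that array. The displacement of mouse 2 differed between bright and dim probes, so it need not cancel for C1qa, whose values recurred more often. The ratio of Tyrobp was below that of C1qa on 15 of 15 arrays, by -1.80 ± 0.19 (SD over 3 mice, averaged over both organs), and below that of Clec4f on 16 of 16 arrays, by -1.01 ± 0.52. Clec4f was below C1qa on 14 of 15 arrays, by -0.76 ± 0.66, and this difference was -1.39 in mouse 2 but -0.07 in mouse 3. Tyrobp thus had the larger liver excess in every mouse, whereas Clec4f and C1qa were close to each other in mouse 3. An exact sign-flip test over 3 mice cannot go below p = 0.25 (two-sided), so no test of these differences was made.

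The 3 chains of C1q, which assemble into one molecule, did not have equal ratios. C1qb, the B chain, was at 0.31 (SE 0.22, limma adjusted p = 0.290), with values from -0.65 to 0.63 on kidney arrays and from -0.28 to 0.84 on liver arrays, and it was above 0 on 13 of 16. C1qa was below C1qb on all 15 arrays that measured both, by -1.43 ± 0.25 (SD over 3 mice), with -1.41, -1.20 and -1.69 in mice 1, 2 and 3. C1qc, the C chain, was at -1.06 (SE 0.50, limma adjusted p = 0.165), and its mice disagreed. Its averages were 0.05 and 0.07 in mouse 1 and -2.10 and -2.74 in mouse 2 on kidney and liver arrays, and -0.61 on the liver arrays of mouse 3. The low values of C1qc were those of mouse 2, whose arrays were displaced, and the centred estimate of C1qc was -0.49 (adjusted p = 0.155, limma). After centring, C1qb was higher in kidney (0.76, adjusted p = 0.0165, limma), and without mouse 2 it also was (0.48, adjusted p = 0.0202, limma). Each chain is represented by 1 probe.

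**Figure D4:**
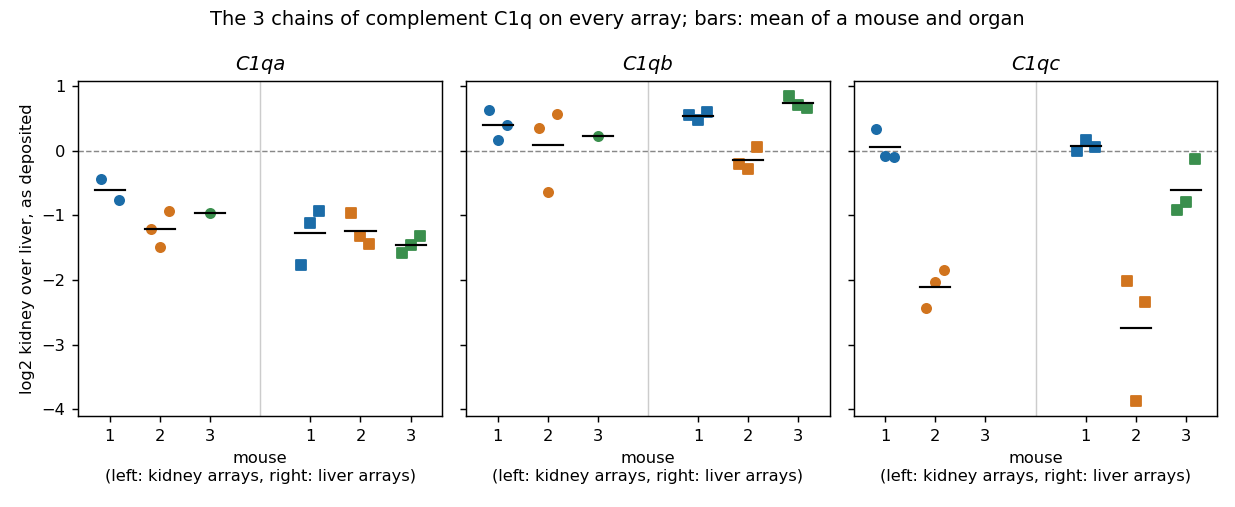
Log2 kidney over liver as deposited for the A, B and C chains of complement C1q on every array, by mouse and array kind (circles for kidney arrays, squares for liver arrays), with bars for the mean of a mouse and organ. C1qb lies around and above 0, with 13 of 16 values above it, C1qa lies below 0 on 15 of 15 arrays, and C1qc reaches -3.87 in mouse 2.

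Among other genes of the classical and lectin pathways of complement, 5 of 12 had more RNA in liver and 0 in kidney (7 and 0 at an unadjusted p under 0.05, limma), beside 7.45% and 5.18% of all probes. These were Mbl1 (-4.64, SE 0.20) and Mbl2 (-2.29, SE 0.29), the mannose-binding lectins secreted by hepatocytes, Serping1 (the C1 inhibitor; -3.65, SE 0.20), the protease Masp1 (-2.18, SE 0.21) and C1ra, the protease that C1q activates (-2.11, SE 0.20). The median of all 12 was -1.06, beside -0.53 over all probes. Of 15 hepatocyte genes, among them Alb, which set the direction, 13 were higher in liver, with a median of -6.80. The part of hepatocytes in the values of the complement genes was not tested. After centring, 5 of the 12 were higher in liver and 1, C1qb, in kidney, beside 11.3% and 17.8% of all probes.

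Of the genes around Tyrobp, few were measurable. Fcer1g, the related adaptor of Fc receptors, had a value on 1 array and Syk on 3, so neither was tested. Hcst (DAP10), which pairs with some of the same receptors and lies beside Tyrobp in the genome, was at -0.88 (SE 0.37, limma adjusted p = 0.136), and at -0.26 without mouse 2. Its values ran from -2.51 to 0.01 on kidney arrays and from -2.08 to -0.01 on liver arrays, with mouse 2 lowest on both. Tyrobp was below Hcst on 16 of 16 arrays, by -2.05 ± 0.81 (SD over 3 mice), with -2.33, -1.13 and -2.68 in mice 1, 2 and 3. Of 11 tested receptors, kinases and other signalling partners of Tyrobp, none passed in either direction (limma), and at an unadjusted p under 0.05 there were 3 toward liver and 0 toward kidney. Their median of -0.49 was near the -0.53 of all probes, and 6 of the 11 probes were dim.

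In the family of Clec4f, 4 of 11 other C-type lectins and collectins had more RNA in liver and 0 in kidney (6 and 0 at an unadjusted p under 0.05, limma), where all probes gave 7.45% and 5.18%. Beside Mbl1 and Mbl2 these were Clec11a (-2.12, SE 0.29), a secreted growth factor with a lectin domain, and Clec4g (-1.22, SE 0.32), a lectin of sinusoidal endothelium. The macrophage mannose receptor Mrc1 (-0.91, SE 0.38; -0.26 without mouse 2) did not pass. The median of the 11 was -0.91. With the mouse as a replicate block, 3 of the 11 passed toward liver, beside 2.91% of all probes, and Clec4g did not (adjusted p = 0.201, limma).

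The macrophage genes that could be tested did not move as a group relative to all probes. Of 54 further genes listed as markers of macrophages and Kupffer cells, 31 had a probe under that symbol and 26 were tested, of which 3 were higher in liver and 1 in kidney. That is 11.5% higher in liver, beside 7.45% of all probes, and the median of -0.55 was near the -0.53 of all probes. At an unadjusted p under 0.05 this list had 6 genes toward liver against 3 toward kidney (limma). Only 6 of the 26 probes were bright, while 6 were dim. Higher in liver were Cybb, the catalytic subunit of the phagocyte NADPH oxidase (-2.10, SE 0.24, 4.28-fold), Mpeg1, a pore-forming protein of macrophages (-1.04, SE 0.23), and Tgfbi (-0.95, SE 0.23). The probe of Tgfbi was dim. Lgals3 (galectin-3), which collecting duct cells also make, was higher in kidney (1.60, SE 0.28, 3.03-fold).

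The values of Cybb were between -2.39 and -1.14 on kidney arrays and between -2.83 and -1.74 on liver arrays, so that 16 of 16 lay on the liver side, and it passed with the mouse as a replicate block (adjusted p = 0.00141, limma). Mpeg1 lay between -2.04 and -0.32 on 16 arrays, all on the liver side, but did not pass after centring (-0.58, adjusted p = 0.129, limma) in the blocked fit (adjusted p = 0.319, limma), or without mouse 1 or mouse 3 (adjusted p = 0.133 and 0.195, limma). Tgfbi did not pass in the blocked fit either (adjusted p = 0.358, limma). In that fit Cybb was the only one of the 26 genes higher in liver and Lgals3 the only one higher in kidney. Cyba, the partner subunit of Cybb, which many cell types make, was at 1.13 (SE 0.32, limma adjusted p = 0.0546), and it passed toward kidney after centring. Of the 26 genes, 4 passed toward liver and 4 toward kidney after centring, which is near the 11.3% and 17.8% of all probes.

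Cd5l, Marco, Lyz2, Msr1 and Ctss, also on the macrophage and Kupffer cell list, did not pass as deposited, though each estimate was below 0. Cd5l, a secreted protein of liver macrophages, was at -0.17 (SE 0.23, limma adjusted p = 0.555), with values on both sides of 0 on both kinds of arrays and no recurring value on the arrays of mice 1 and 3. The scavenger receptor Marco was below 0 on 16 of 16 arrays (-0.94, SE 0.31, limma adjusted p = 0.0855). Its adjusted p was 0.0311 after centring and 0.0359 without mouse 2 (limma). Its probe was dim, and the values ran from -2.24 to -1.52 in mouse 2 and from -0.94 to -0.11 in the other mice. Lyz2 (lysozyme; -0.69), Msr1 (-0.93; -0.33 without mouse 2) and Ctss (cathepsin S; -0.38) did not pass, though Msr1 did after centring (adjusted p = 0.0373, limma), and Ctss and Cd5l then turned to above 0. The median of the 26 genes by mouse and organ ranged from -1.26 to 0.07, and was lowest in mouse 2. Vsig4, Timd4, Adgre1 and Csf1r were not analysed here.

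**Figure D5:**
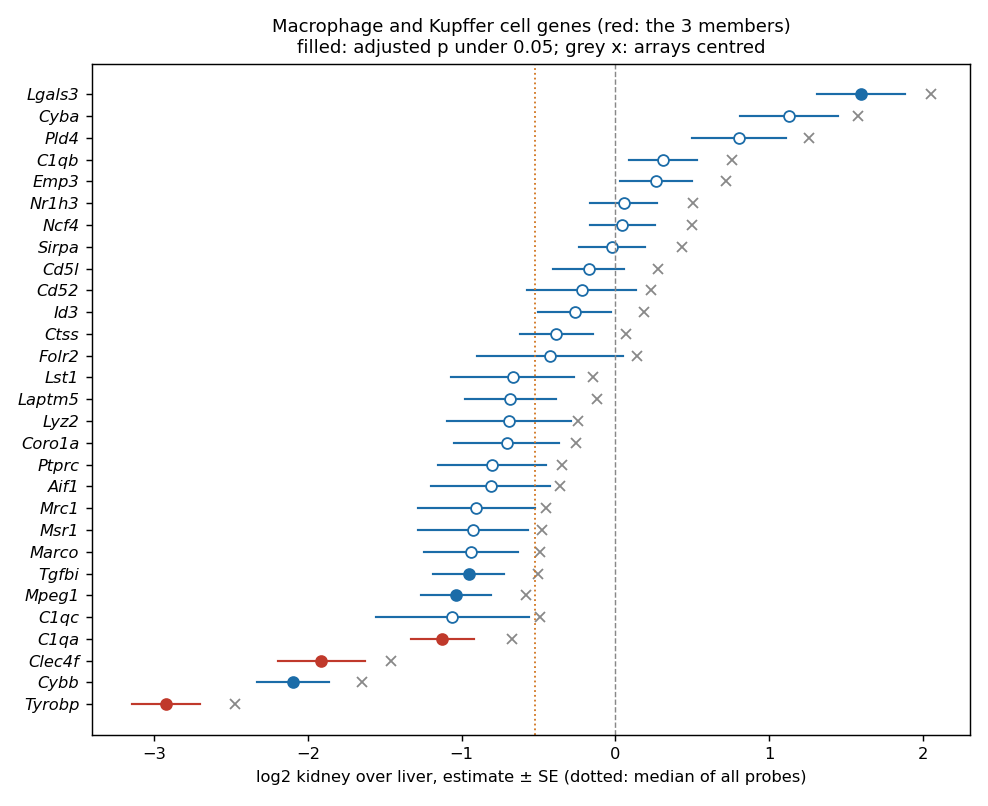
Estimated log2 kidney over liver ± SE (limma) for the 3 members (red) and 26 other genes of the macrophage and Kupffer cell list (blue), with filled points where the adjusted p is under 0.05, grey crosses for the estimates after centring each array, and a dotted line at the median of all probes (-0.53). Tyrobp, Cybb, Clec4f and C1qa have the lowest values, and Lgals3 the highest (1.60).

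Markers of other cells that organ pieces hold were read the same way, and their part in the members' results was not tested. Of 12 lymphocyte genes, 3 were higher in liver, namely Cd247 (-1.28), Cd79b (-1.22) and Cd4 (-1.19), and 0 in kidney, where 7.45% and 5.18% of all probes passed. The probes of Cd79b and Cd4 were dim. None of 10 neutrophil genes and none of 2 erythroid genes passed (limma), with 5 and 1 toward liver at an unadjusted p under 0.05. Among 11 genes of dendritic cells and MHC class II, H2-Aa was higher in kidney (0.89) and 0 were higher in liver (4 at an unadjusted p under 0.05, limma). After centring, 4 of these 11 were higher in kidney, namely H2-Aa, H2-Eb1, Cd74 and Irf8, beside 17.8% of all probes. Without mouse 2 it was 3 of 6, beside 18.5% of all probes, and the list median was 0.54 in place of -0.70. Of 12 endothelial genes, Ehd3 (-1.25) and Clec4g were higher in liver, and of 12 stellate cell and fibroblast genes Ecm1 (-1.77) and Vim (-1.14) were higher in liver and Col1a1 (1.15) in kidney. Other probes of Vim (0.65) and Col1a1 (-0.98) had the opposite sign. With the mouse as a replicate block, Ecm1 was the one gene of these lymphocyte, dendritic, endothelial and stellate lists that passed, beside 5.23% of all probes. After centring, 3 of the 12 endothelial genes were higher in kidney, namely Emcn (1.18), Plvap (1.32) and Egfl7 (0.87, limma). They also were without mouse 2, as 3 of 10. The shares of all probes higher in kidney were 17.8% and 18.5%. These endothelial genes, H2-Eb1, Cd74 and Irf8 did not pass as deposited, and naming them was a choice made after their values were seen. All 10 proximal tubule genes were higher in kidney.

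By pattern over the 6 averages of a mouse and organ, the genes nearest to the members were not those of the macrophage list. Nearness was the root mean square difference of the log2 ratios among 7432 genes with a value in all 6, so genes with a like mean ratio come first. Nearest to Clec4f were Slc17a7, Appl1, Tigd2, Rab26 and Grb14 (0.23 to 0.34). Nearest to Tyrobp were Plekhm2, Ttc39c, Cops5, Abcb4 and Fabp6 (0.32 to 0.36), and nearest to C1qa were Vash2, Tmod4, Cbr3, 1700029P11Rik and Mzf1 (0.19 to 0.21). The members were farther from each other, at 1.14 for Clec4f and Tyrobp, 0.97 for Clec4f and C1qa and 1.84 for Tyrobp and C1qa. Their mean ratios differed, so these distances do not compare their patterns. Against the 7432 genes, Clec4f ranked 170 and C1qa 480 from Tyrobp. From Clec4f, Tyrobp ranked 901 and C1qa 457. From C1qa, Clec4f ranked 2976 and Tyrobp 6566.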

How the data were processed

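The deposited values are log2 ratios of the 2 channels of an array. Per the labels' protocols, 20 µg of total RNA was labelled with Cy3 or Cy5, slides were read with GenePix Pro 3.0, and the authors scaled background-subtracted mean intensities to a median ratio of 1, which held for the 10 arrays of mice 1 and 3. The base was read from the values: of 144 spacings from each array's commonest value, 140 matched small-integer ratios (integers to 10, tolerance 1e-04) in base 2, 16 in base 10 and 0 as natural logarithms. The dye of each sample is not given in the sources used here. The number of arrays and mice limits the precision, and raw intensities were not used.

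Values on kidney arrays were turned in sign, hybridisations of a mouse and organ (the same RNA) were averaged, and the 6 averages entered limma 3.58.1 (R 4.3.3), with array kind as a covariate. Probes needed data from 2 or more mice in each array kind, which left 18670. Tests are two-sided and Benjamini-Hochberg adjusted over these probes at 0.05. Mouse numbers name the same animal on both array kinds, per the labels. Deviations of a mouse, as kidney over liver, had correlations across its array kinds of 0.591, 0.795 and 0.585 (mice 1 to 3, 14688 probes). Alternatives were centring, other scalings, filters and variance models, the mouse as a replicate block, 1 array kind, and leaving out each mouse. Gene names come from the platform annotation (11723 probes with 1 symbol, 806 with several, 7890 with none), of which 11590 were updated through RefSeq GRCm38.p6. A listed gene with several probes is represented by the one with values on the most arrays. Members, lists and tests were chosen with earlier results of these data known. Named were the members, all genes of the macrophage list as needed, set partners of the members, up to 4 called genes per direction in other lists and the 5 genes nearest by ratio. Figures were drawn with matplotlib 3.10.9.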

Additional observations from a re-analysis of the deposited data

How the results depend on the processing

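Tyrobp and Clec4f kept their direction in all 16 other treatments tried, Tyrobp with an adjusted p under 0.05 in each. Across probes, 2358 passed, 13609 with quantile normalization, 5445 with centring, 4141 with single arrays and a random block, 3995 with arrays scaled to one spread, 1543 on liver and 774 on kidney arrays alone, 968 with the replicate block by mouse (1466 with mouse 2 also aligned by bright probes), and 700 to 4873 without 1 mouse. For the array kind 12, 11, 4 and 2 probes passed with the block on the kidney over liver scale, quantile normalization, scaling, and trend and robust variances. Clec4f was -1.81 on kidney arrays alone and -2.23 to -1.56 without 1 mouse. C1qa was -0.67 with centring, alone or with the block, -0.93 on kidney arrays alone, -1.13 with the block, -1.03 with the block and mouse 2 aligned, and -1.22 to -1.07 without 1 mouse. It had no value on 1 array, so the filter for complete probes left it out. In the macrophage list, 1 gene was higher in liver with the block, and 4, 3, 2 and 4 were higher in kidney with centring, mouse 2 aligned, probe means and without mouse 2. In the complement list 1 was higher in kidney with centring and without mouse 2, where the median was -2.02 over the 9 genes left. Signs turned for Cd5l (0.28) and Ctss (0.068) with centring and, without mouse 2, for Lyz2 (0.011; -1.08 to 0.011 without 1 mouse) and the array kind of Tyrobp (-0.16; -0.16 to 0.20 without 1 mouse). On the scale of sample over pool the array kind equals the mouse mean and has no value with the block. Combinations with the block, the block for the array kind, and list results beyond centring and probe means, were added after seeing the data. The causes of these changes were not tested.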
